A study of Mus musculus and Rattus norvegicus with 12 samples.

Results

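Cytosolic ribosomal protein genes encode the proteins of the small (Rps) and large (Rpl) ribosomal subunits. They were taken as every row whose symbol begins with Rpl or Rps followed by a digit or the letter a, leaving out pseudogene rows and the S6 kinases. The rule found 85 of 24411 genes in the mouse tables and 81 of 17315 in the rat tables, and 79 symbols were in both. It does not take the stalk proteins Rplp0, Rplp1 and Rplp2, which are given separately. It does take Rps19bp1, which encodes a protein that binds a ribosomal protein and is not one itself, and Rps4l and Rpl37rt, which GENCODE annotates as transcribed processed pseudogenes. Of the 85 mouse members, 79 had enough counts to be tested. The 6 others were Rpl26, Rpl30, Rps27, Rps27rt, Rpl34 and Rpl3l.

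RNA was sequenced from 12 independently derived lines. The mouse lines were all of the ICR strain. They comprised 3 pXEN lines (pXEN2, male, and pXEN4 and pXEN6, female), 3 XEN lines (XEN1, female, and XEN2 and XEN5, male) and 2 embryonic stem (ES) lines (ES2, male, and ES3, female). The rat XENP lines were CX1 (WKY, male), MAX8 (WKY, female), MAX2 (F344, female) and MAX3 (F344, male). No line was labelled with an engineered allele, and all were collected after 2 days of culture. XEN cells derive from primitive endoderm, the blastocyst layer from which yolk sac endoderm forms, and ES cells are pluripotent. pXEN and XENP lines shared a culture protocol, XEN lines were grown in 20% serum on mouse embryo fibroblasts, and ES lines with LIF, 2i and 15% serum. Cell type and culture therefore changed together in every mouse comparison.

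Ribosomal protein genes are transcribed by RNA polymerase II at high and coordinated levels, and each ribosome needs each protein in equal number. Their mRNAs begin with a terminal oligopyrimidine (TOP) tract, a C followed by pyrimidines, through which the mTOR pathway controls their translation. Several have paralogs made by gene duplication or retroposition. Rpl10l and Rpl39l are best known from male germ cells, where they can stand in for the X-linked Rpl10 and Rpl39, and Rpl3l from heart and skeletal muscle. Most ribosomal protein genes have many processed pseudogene copies, so a read can match several places in the genome.

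Rpl39l and Rpl39 are shown first because Rpl39l was the only member called between pXEN and XEN. Rpl39l lies on chromosome 16 (chr16:10170226-10174911, plus strand) and Rpl39 on the X chromosome (chrX:37082520-37085402, minus strand). The coding sequences below are those of the GENCODE vM21 transcripts on GRCm38, written 5′ to 3′, with the bases that differ between the 2 genes in capitals.
Rpl39l: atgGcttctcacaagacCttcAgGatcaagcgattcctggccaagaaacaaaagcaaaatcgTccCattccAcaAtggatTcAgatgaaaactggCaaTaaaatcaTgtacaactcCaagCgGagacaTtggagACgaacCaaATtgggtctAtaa
Rpl39: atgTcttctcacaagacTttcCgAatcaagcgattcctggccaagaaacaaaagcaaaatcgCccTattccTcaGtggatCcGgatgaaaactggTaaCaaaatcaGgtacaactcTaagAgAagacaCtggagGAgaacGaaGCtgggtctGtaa
The pair differed at 23 of 156 coding bases and was 85.3% identical, with a longest shared run of 38 bases. That run is shorter than the 101 cycles of each read. No 101-base window of the Rpl39l transcript, and 1.56% of those of Rpl39, was found exactly in the transcripts of another annotated gene.

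Among the other pairs, coding identity was 84.8% between Rpl10l and Rpl10, 87.9% between Rpl36al and Rpl36a, 76.1% between Rps27l and Rps27 and 73.3% between Rpl3l and Rpl3. It was 67.5% between Rpl22l1 and Rpl22, and 54.5% between Rpl7l1 and Rpl7. The tested members had a median of 36.7% of their 101-base windows in another gene's transcript, 28 of 79 had over 50% and 9 had none. Rpl10l and Rps27l had none, against 91.6% for Rpl10, whose copies include Rpl10-ps3. The share was 98.4% for Rps27, 83.6% for Rpl36a, 79.2% for Rpl3, 78.8% for Rpl13, 73.3% for Rpl7a and 64.5% for Rps2. Reads that matched several places were not counted for any gene, so the levels of such members are uncertain and count only the reads with 1 match.

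The start sites of both pairs with a testis-type copy, and of Rpl7a, the member that was higher in both endoderm groups than in ES, are shown for their pyrimidine runs. Each line gives 50 bases before and 50 after the RefSeq start site on GRCm38.p6, on the gene's strand. Capitals mark runs of at least 8 C or T letters that begin with C, searched on that strand only.
Rpl39l (chr16:10170178-10170277, plus strand): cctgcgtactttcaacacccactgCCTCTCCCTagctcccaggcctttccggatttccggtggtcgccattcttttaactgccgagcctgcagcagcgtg
Rpl39 (chrX:37085173-37085272, minus strand): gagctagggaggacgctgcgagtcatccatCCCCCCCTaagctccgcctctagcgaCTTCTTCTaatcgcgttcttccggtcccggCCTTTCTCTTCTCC
Rpl10l (chr12:66284352-66284451, minus strand): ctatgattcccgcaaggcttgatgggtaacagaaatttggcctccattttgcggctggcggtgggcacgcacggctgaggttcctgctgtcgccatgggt
Rpl10 (chrX:74270766-74270865, plus strand): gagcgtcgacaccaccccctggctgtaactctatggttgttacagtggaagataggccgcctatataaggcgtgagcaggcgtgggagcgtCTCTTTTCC
Rpl7a (chr2:26910757-26910856, plus strand): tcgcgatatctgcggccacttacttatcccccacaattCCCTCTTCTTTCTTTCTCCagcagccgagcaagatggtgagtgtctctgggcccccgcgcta
Such a run was found for 52 of the 65 members with a RefSeq entry (80%), and for 31.6% of the 8339 tested genes with an entry. In Rpl7a the run spans the start site, in Rpl39 and Rpl10 runs lie after it (in Rpl39 also before it), and in Rpl39l the run lies before it. Rpl10l had no run in this window, and the 20 members without an entry were not searched.

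Gene counts lay between 2661691 and 3483069 in the mouse libraries and between 1047535 and 1242937 in the rat libraries. In mouse, 20.7% to 50.1% of them fell on Rn45s, the precursor of ribosomal RNA, and multimapping reads were 7.84% to 9.65% of mouse reads and 65.5% to 70.1% of rat reads. Compared with ES, both endoderm groups had all 9 primitive endoderm markers called higher and all 8 pluripotency markers called lower. The summed level of 14 fibroblast markers was 8.56 to 14.2 CPM (counts scaled to library size) in pXEN lines, 231 to 298 in XEN lines and 8.18 to 10.7 in ES lines. In bulk RNA, fewer cells of a type and less RNA per cell cannot be told apart.

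Without Rn45s, the members took 5.40%, 5.50% and 5.55% of gene counts in pXEN2, pXEN4 and pXEN6. They took 5.21%, 5.46% and 5.79% in XEN1, XEN2 and XEN5. ES2 had 6.76% and ES3 6.02%. Both ES lines were above all 6 endoderm lines, and pXEN and XEN overlapped. The mean was 5.48% ± 0.0765 in pXEN, 5.49% ± 0.295 in XEN (SD, n = 3 each) and 6.39% ± 0.523 in ES (n = 2). Rat XENP lines had 8.90% (CX1), 7.56% (MAX2), 7.27% (MAX3) and 7.85% (MAX8). Species, genome and annotation differ there, so the rat shares were not tested against mouse.

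**Figure D1:**
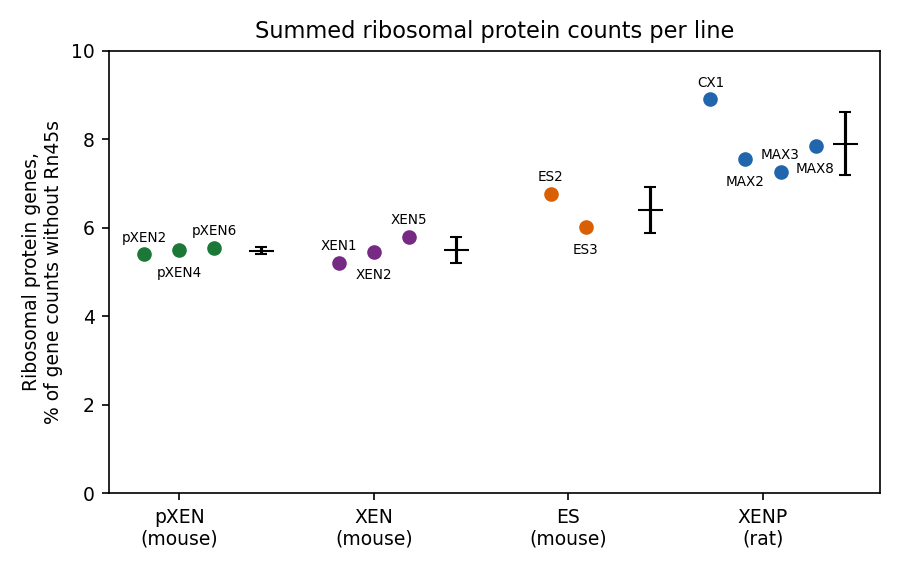
Ribosomal protein genes as a percentage of gene counts without Rn45s, for each line (points) with mean and SD of each group (black). The pXEN and XEN lines lie between 5.21% and 5.79%, below ES3 at 6.02% and ES2 at 6.76%; the rat lines lie between 7.27% and 8.90%.

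Levels per length, as CPM per kilobase of transcript over the 8 mouse lines, had a median of 560 over the tested members. Rpl32 (1499), Rps12 (1499) and Rpl41 (1469) stood highest, all of them components that every ribosome carries. Rpl10l (4.12), Rpl37rt (4.48) and Rps15a (4.85) stood lowest. The Rps15a value rests on an annotated transcript of 5130 bases with a coding part of 393 bases and on CPM of 11.1 to 39.0. Replicate lines of a group differed by a median SD, pooled over the 3 groups, of 0.19 on the scale of log2(CPM + 1), which reduces the spread of members with few counts. On that scale Rps4l (1.08) and Rpl39l (0.86) exceeded 0.5 and the other tested members did not. Members with the next largest spread, named for it after their values were seen, included Rps2, with 1108 CPM in pXEN2 against 531 and 458 in pXEN4 and pXEN6, and Rps24, with 1212 CPM in ES2 and 587 in ES3. The small-subunit protein Rps14 also differed between the ES lines, at 793 CPM in ES2 and 421 in ES3, while Rps3a1 had 190, 228 and 105 CPM in pXEN2, pXEN4 and pXEN6.

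In pXEN against ES, 1 member was higher and 7 were lower at an adjusted p of at most 0.05 (quasi-likelihood test of edgeR, Benjamini-Hochberg adjusted over 10895 genes). Of all genes tested, 18.2% were called higher and 17.8% lower, against 1.27% and 8.86% of the members. In XEN against ES, 1 member was higher and 12 lower (15.2%), where 20.7% of all genes were higher and 17.8% lower. The ES lines served both comparisons. The 7 members lower in pXEN became 4 (5.06%) without pXEN6, where 15.8% of all genes were lower. The 12 lower in XEN became 7 (8.97%) without XEN5, where 14.6% of all genes were. Without ES2 or without ES3, fits with 1 ES line, fewer members were lower in both groups, as were fewer of all genes. Without ES2 no member was called higher in XEN. With upper-quartile scaling 14 members were lower in pXEN (17.7%, against 20.0% of all genes) and 20 in XEN (25.3%, against 20.8%). The members' share of lower calls in XEN was thus below that of all genes or above it depending on the scaling, and with DESeq2 it was 18.5%, against 14.6% of all genes.

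Most members lay slightly below their ES level. The median log2 fold change of the members was -0.24 in pXEN and -0.25 in XEN against ES, with -0.03 and 0.00 over all genes. In pXEN 66 of 79 members (83.5%) had a value below 0, against 51.0% of all genes, and in XEN 69 (87.3%), against 49.9%. In pXEN 78.5% of the members were within 0.5 of 0 on the log2 scale, against 35.3% of all genes, and in XEN 73.4% against 33.7%. With upper-quartile scaling the median of all genes itself shifted to -0.13 and -0.11, and that of the members to -0.35 and -0.37.

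**Figure D2:**
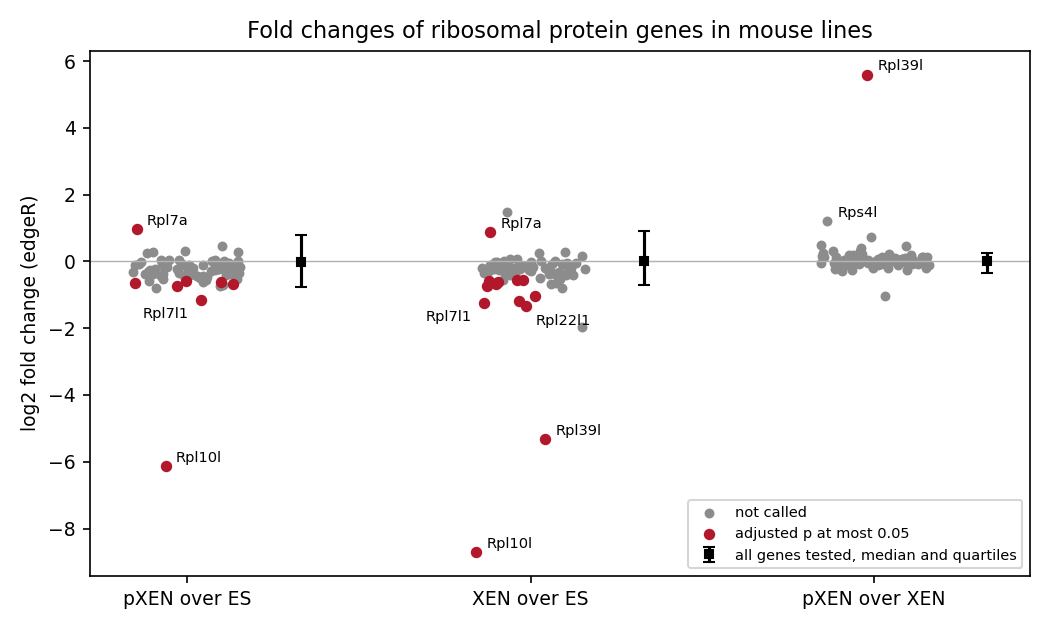
log2 fold changes (edgeR, all 8 mouse libraries) of the tested members in the 3 mouse comparisons. Each point is a member, red where the adjusted p is at most 0.05, and black squares with bars give the median and quartiles of all 10895 genes; Rpl10l is left out of pXEN over XEN, where it had 2 and 0 counts. Most members lie close to 0 and few paralogs far from it.

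Rpl10l, the autosomal intronless copy of Rpl10, was the member furthest below ES. It had 0, 0 and 2 counts in pXEN2, pXEN4 and pXEN6, 0 counts in each XEN line, and 37 and 46 counts in ES2 and ES3. ES lines thus stood apart from every endoderm line. Over the groups, the level in ES was 83.3 times that in pXEN (95% counting interval 22.4 to 700), and Rpl10l was at least 55.1-fold lower in XEN, against 3 counts over the group. The adjusted p was 0.000641 for pXEN and 0.000409 for XEN (edgeR). It made up 0.113% ± 0.195 of the counts of the Rpl10 pair in pXEN and 0% in XEN (SD, n = 3 each), and 6.79% ± 2.27 in ES (n = 2). The main copy Rpl10, an intersubunit-face protein needed for subunit joining, had 168, 162 and 169 CPM in pXEN and 159, 154 and 163 in XEN, with 166 in ES2 and 328 in ES3. Its fold changes did not pass the test (log2 -0.57, adjusted p = 0.113 for pXEN, and -0.64, adjusted p = 0.0767 for XEN). Rpl3l was also near 0 in the endoderm lines: 1 count over pXEN, 0 over XEN and 9 over ES. At these counts it was not tested, and the ES level was 18.1 times that of pXEN (95% counting interval 2.5 to 792).

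Rpl39l, the autosomal copy of Rpl39, a small protein that lines the exit tunnel, differed between pXEN and XEN. It had 41.8, 7.12 and 16.1 CPM in pXEN2, pXEN4 and pXEN6, and 0.779, 0.278 and 0.264 CPM in XEN1, XEN2 and XEN5. ES2 had 10.7 CPM and ES3 24.9. The XEN lines, with 1 or 2 counts each, lay below all others, while pXEN and ES overlapped. Rpl39l was 48.3-fold higher in pXEN than in XEN (log2 fold change 5.59, SE 0.87, adjusted p = 0.00610, edgeR). It was the only member called there, with none lower, where 0.918% of all genes were higher and 3.63% lower (Rps4l joined it without XEN2). It was 40.0-fold lower in XEN than in ES (log2 -5.32, SE 0.92, adjusted p = 0.00167). The log2 value against XEN was 4.70 without pXEN2, and that of XEN against ES -4.59 without ES3; both stayed past the threshold (adjusted p = 0.00824 and 0.0141). In pXEN against ES the log2 fold change was 0.27 (95% interval -1.18 to 1.72, adjusted p = 0.778), and its sign depended on pXEN2 and ES2: it was -0.62 without pXEN2 and -0.20 without ES2.

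As a share of the counts of the pair, Rpl39l took 9.32%, 1.54% and 3.54% in pXEN2, pXEN4 and pXEN6, between 0.0568% and 0.182% in XEN lines, 1.93% in ES2 and 2.99% in ES3. Rpl39 itself was close in pXEN (406 to 454 CPM) and XEN (428 to 465 CPM), so the pair's share moved with Rpl39l. The summed pluripotency markers were 29.9, 64.6 and 31.0 CPM in pXEN2, pXEN4 and pXEN6, 3.70 to 6.12 in XEN and 4604 to 4698 in ES. pXEN4 was thus the pXEN line with the highest pluripotency sum and the lowest Rpl39l. XEN lines also carried the fibroblast markers given above. The part of these markers, and of the culture protocol, in the Rpl39l result was not tested.

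**Figure D3:**
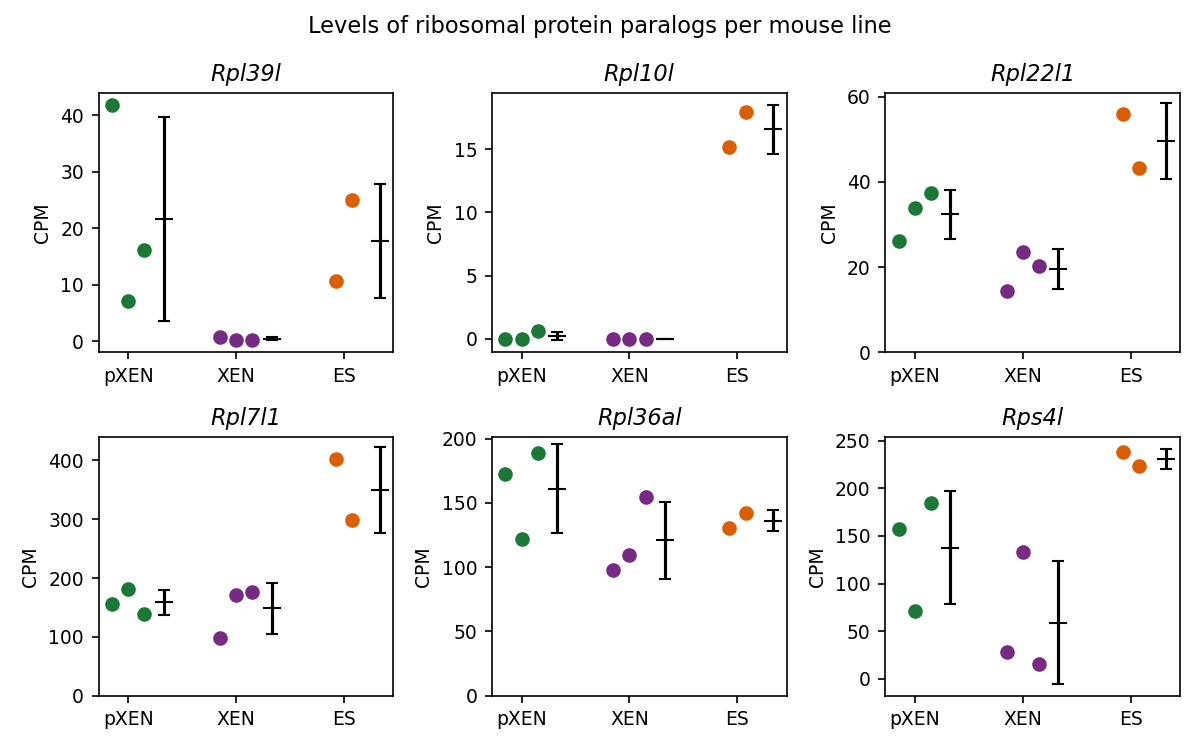
CPM of 6 members that are paralogs of a main copy, in each mouse line (points) with mean and SD of the group (black). Rpl10l is at 0 or 0.574 CPM in all endoderm lines and at 15.2 and 17.9 in ES; Rpl39l is under 1 CPM in the XEN lines alone; Rps4l spans 15.9 to 133 CPM over the XEN lines.

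Rpl22l1, the paralog of Rpl22, was lower in XEN than in ES. It had 26.0, 33.9 and 37.3 CPM in pXEN, 14.4, 23.6 and 20.3 in XEN, and 55.9 and 43.3 in ES. The 3 groups did not overlap, in the order XEN, pXEN, ES. It was 2.53-fold lower in XEN than in ES (log2 -1.34, SE 0.29, adjusted p = 0.00425, edgeR). The log2 fold change of pXEN against ES (-0.61, adjusted p = 0.119) and of pXEN against XEN (0.73, adjusted p = 0.195) missed the threshold. Rpl22 had 309 to 377 CPM in pXEN lines, 286 to 394 in XEN lines and 420 to 449 in ES lines, and passed the test in none of the 3 comparisons. Rpl22l1 took 8.59% ± 2.17 of the pair's counts in pXEN, 5.13% ± 0.478 in XEN (SD, n = 3 each) and 10.2% ± 1.22 in ES (n = 2). In 40.3% of its windows the sequence also occurs in the transcript of Gm15421.

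Rpl7l1, an Rpl7-like protein, was lower in both endoderm groups. It had 156, 181 and 139 CPM in pXEN, 97.4, 171 and 176 in XEN, and 402 and 299 in ES. It was 2.21-fold lower in pXEN (log2 -1.14, SE 0.28, adjusted p = 0.00752) and 2.36-fold lower in XEN (log2 -1.24, SE 0.28, adjusted p = 0.00506, edgeR) than in ES. Without ES2 the calls were lost (adjusted p = 0.0870 and 0.0610). Only 1.60% of its windows occur elsewhere. Rpl7 had 1059 to 1314 CPM in pXEN lines, 1013 to 1192 in XEN lines and 1289 to 1695 in ES lines, and was not called.

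Rpl36al, the retrocopy of Rpl36a, was called in no comparison, at 122 to 189 CPM in pXEN lines, 98.2 to 155 in XEN lines and 130 to 142 in ES lines. Its share of the pair was 30.1% ± 3.54 in pXEN, 31.1% ± 4.74 in XEN (SD, n = 3 each) and 18.7% ± 4.07 in ES (n = 2), while the X-linked Rpl36a stood higher in ES lines (473 and 752 CPM). Rps27l, a p53-responsive paralog of Rps27, had 197 to 347 CPM in pXEN lines, 206 to 314 in XEN lines and 216 to 248 in ES lines, with no call. It took 99.2% to 99.8% of the counts of its pair in all mouse lines because Rps27 had only 2 to 6 counts per line. That share cannot be read as a ratio of the 2 mRNAs.

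Rps4l, an expressed processed copy of Rps4x, had the largest SD between lines pooled over the groups, with most of it among the XEN lines. It had 157, 71.2 and 185 CPM in pXEN2, pXEN4 and pXEN6, 28.1, 133 and 15.9 in XEN1, XEN2 and XEN5, and 238 and 223 in ES2 and ES3. XEN2 lay within the pXEN range and the other two XEN lines below it. No call was made with all lines (pXEN against XEN log2 1.22, adjusted p = 0.545, and XEN against ES log2 -1.96, adjusted p = 0.106). Without XEN2 both passed, at log2 2.66 (adjusted p = 0.0111) and -3.41 (adjusted p = 0.000586, edgeR). Only 1.89% of its windows occur elsewhere.

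Rpl7a was the only member called higher than ES. Rpl7a, a large-subunit protein whose introns carry snoRNAs, had 470, 612 and 658 CPM in pXEN, 523, 557 and 560 in XEN, and 283 and 314 in ES. All endoderm lines were above both ES lines. It was higher in pXEN (log2 0.96, SE 0.21, adjusted p = 0.00465) and in XEN (log2 0.87, SE 0.21, adjusted p = 0.00758, edgeR) than in ES, but in XEN not without ES2 (adjusted p = 0.0686). The 73.3% of its windows shared with other transcripts, 35 genes among them Gm8226, limit this value.

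Rps23, a protein of the decoding centre, was lower in both groups. It had 547, 591 and 457 CPM in pXEN, 478, 539 and 572 in XEN, and 911 and 850 in ES, without overlap. The log2 fold change was -0.73 in each comparison (SE 0.19, adjusted p = 0.0129 for pXEN and 0.0121 for XEN, edgeR). Rpl3, which lies near the peptidyl transferase centre, had 853 to 926 CPM in pXEN lines, 841 to 982 in XEN lines and 1209 to 1439 in ES lines. Its log2 fold change was -0.58 in pXEN (adjusted p = 0.0276) and -0.54 in XEN (adjusted p = 0.0345). Rpl13 was lower in pXEN (766 ± 26.8 CPM, n = 3) than in ES (1168 ± 50.5, SD, n = 2; log2 -0.61, adjusted p = 0.0370, edgeR).

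In XEN, Rps2 had 444 to 547 CPM, against 943 and 1087 in ES (log2 -1.04, adjusted p = 0.0287, edgeR), but pXEN2 at 1108 CPM was as high as ES. Rpl5, which carries 5S rRNA into the ribosome, had 531 to 798 CPM in XEN and 964 to 1181 in ES (log2 -0.60, adjusted p = 0.0492). Rpl12, a protein at the base of the stalk, had 534 to 622 CPM in XEN and 782 to 936 in ES (log2 -0.56, adjusted p = 0.0332). Each of the calls of Rps23, Rpl3, Rpl13, Rps2, Rpl5 and Rpl12 against ES was lost when 1 or more single lines were left out: without ES2 the adjusted p was 0.0879 and 0.0841 for Rps23, 0.212 and 0.242 for Rpl3, and 0.170, 0.149, 0.290 and 0.236 for Rpl13, Rps2, Rpl5 and Rpl12. Without the filter on low counts the calls of Rpl3 and Rpl13 in pXEN (adjusted p = 0.0796 and 0.0749) and of Rpl3, Rpl12 and Rpl5 in XEN (0.105, 0.0978 and 0.0936) were also lost. With only XEN and ES fitted, Rpl3, Rpl12 and Rpl5 missed the threshold in XEN (0.0661, 0.0629 and 0.0794, edgeR). Rpl5 did so too with unstranded counts and with Rn45s removed (0.0524 and 0.0520), and was lost in 11 of 17 alternatives.

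The 4 X-linked members were Rpl39, Rpl10, Rps4x and Rpl36a, and ES3, labelled female, was the highest line for each. Rpl39 had 406 to 454 CPM in pXEN, 428 to 465 in XEN, 811 in ES3 and 543 in ES2. Rps4x had 481 to 521 CPM in pXEN, 435 to 525 in XEN, 977 in ES3 and 599 in ES2. Rpl36a had 331 to 454 CPM in pXEN, 209 to 313 in XEN, 752 in ES3 and 473 in ES2. For all 3 genes ES2 was also above the endoderm lines, and for Rpl10, given above, it lay among them. The ratio of ES3 to ES2 was 1.49 to 1.97 over the 4 members (median 1.61). It had a median of 0.925 over 73 autosomal members, 1.62 over 258 X-linked genes and 0.971 over 6958 autosomal genes, all with a mean of at least 10 CPM. With 1 line of each sex these ratios have no replicate check.

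Among pXEN lines, the 4 members had a median ratio of 1.06 for the female lines pXEN4 and pXEN6 to the male line pXEN2, where X-linked genes had 1.13 and autosomal genes 1.02. Among XEN lines the ratio of XEN1, female, to XEN2 and XEN5, male, was 0.971, with 0.922 over X-linked genes. Xist, the RNA that coats an inactive X chromosome, had 784 and 150 CPM in pXEN4 and pXEN6, 659 in XEN1 and 14.0 in ES3 among female lines. In male lines it had 0 in pXEN2, 9.45 and 8.72 in XEN2 and XEN5, and 0.411 in ES2. ES3, the only female ES line, had the lowest Xist level among the female lines and the highest level of each of the 4 members. The part of Xist in these levels was not tested.

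Against ES as a group, Rpl39 was lower in pXEN (log2 -0.65, adjusted p = 0.0321) and XEN (-0.60, adjusted p = 0.0415), and Rps4x in pXEN (-0.67, adjusted p = 0.0389) and XEN (-0.69, adjusted p = 0.0328, edgeR). Rpl36a was lower in XEN (-1.19, adjusted p = 0.00495), and its value in pXEN was -0.71 (adjusted p = 0.0557). All 5 calls were lost without ES3: Rpl39 was then at -0.32 and -0.28, Rps4x at -0.26 and -0.29, and Rpl36a in XEN at -0.81 (adjusted p = 0.373, 0.417, 0.483, 0.414 and 0.0750). With sex as covariate, Rpl39 in XEN missed the threshold (log2 -0.55, adjusted p = 0.0569, edgeR) and the other 4 calls passed it. The Rpl39 call was lost in 9 of 17 alternatives in XEN and in 4 in pXEN. The Rps4x call was lost in 5 in XEN and in 6 in pXEN, and the Rpl36a call in XEN in 1. Over all 8 lines with group in the model, no member was called between female and male lines, where 0% of all genes were higher and 0.00918% lower. At an unadjusted p under 0.05 there were 2 members and 537 genes. The log2 fold changes were 0.18 for Rpl39, 0.26 for Rpl10, 0.26 for Rps4x and 0.09 for Rpl36a (adjusted p = 0.937, 0.922, 0.914 and 0.981).

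**Figure D4:**
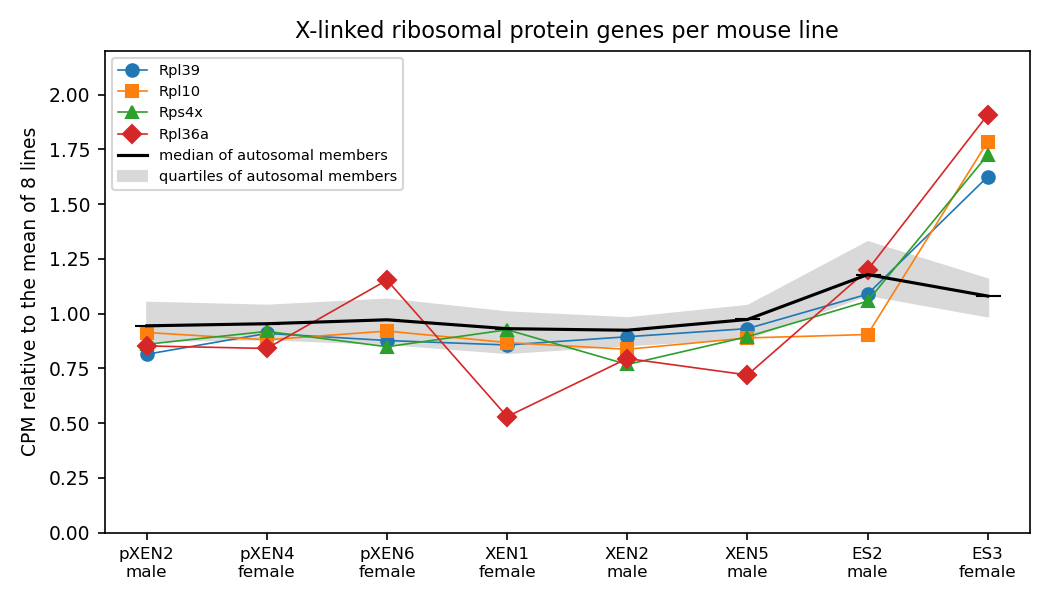
CPM of the 4 X-linked members in each mouse line, divided by the gene's mean over the 8 lines, with the labelled sex under each line. The black line and grey band are the median and quartiles of 73 autosomal members; in ES3 all 4 X-linked members lie above the band, and in ES2 none does.

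Between pXEN and XEN the members were close to each other apart from Rpl39l. The median log2 fold change was 0.02, and 93.7% of the members were within 0.5 of 0, against 68.2% of all genes. The median SE of a member was 0.19, so changes of that size would not pass the test. Rpl37rt had 0.987, 0.854 and 2.30 CPM in pXEN and 1.95, 3.61 and 2.91 in XEN (log2 -1.02, adjusted p = 0.503). Rps19bp1 had 17.4 to 20.7 CPM in pXEN lines, 14.0 to 23.9 in XEN lines and 19.9 to 23.4 in ES lines, and was called in no comparison.

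The stalk proteins, which recruit elongation factors, were called in no comparison (0 of 3), with log2 fold changes against ES of -0.21 for Rplp0, -0.29 for Rplp1 and -0.06 for Rplp2 in pXEN and -0.21, -0.08 and -0.26 in XEN. Of 16 elongation factor and other TOP mRNA genes, none was higher and 1 was lower (6.25%, against 17.8% of all genes) in pXEN, the initiation factor subunit Eif3k (112 ± 13.2 CPM in pXEN, SD, n = 3, and 189 ± 26.4 in ES, n = 2). In XEN, 1 was higher, Tpt1 (1.99-fold, adjusted p = 0.0145, edgeR), and 1 lower, Eif3k. The number called lower in pXEN was 0 without pXEN2, pXEN6 or ES2, 2 without pXEN4 or XEN1 and 3 without XEN2, where 1 was higher. In XEN it was 0 without XEN5, ES2 or ES3 and 3 without XEN2, and none was called higher without ES2 or ES3. Upper-quartile scaling gave 4 lower in pXEN and 3 in XEN. RLE scaling and DESeq2 gave 2 in each group, fits of only the 2 groups gave 3 in pXEN, and sex as covariate gave 2 in XEN. In pXEN 1 gene was higher with DESeq2, with 2-group fits and without the filter on low counts.

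Factors that assemble the ribosome were called in 1 direction only. Of 57 tested ribosome biogenesis factors, 19 were lower than ES in pXEN and 28 in XEN and none was higher, with median log2 fold changes of -0.63 and -0.82. The lowest was Mdn1, the ATPase midasin that remodels pre-60S particles, at 83.5 ± 33.8 CPM in pXEN and 60.7 ± 14.9 in XEN (SD, n = 3 each), with 367 ± 24.7 in ES (n = 2; adjusted p = 0.000434 and 0.000151, edgeR). Of 19 RNA polymerase I and rDNA transcription genes, 6 were lower in pXEN and 8 in XEN, with none higher (medians -0.54 and -0.61). The lowest was the polymerase subunit Polr1b, at 4.53 ± 2.82 CPM in pXEN lines, 3.66 ± 1.34 in XEN lines and 17.4 ± 0.943 in ES lines. The background of lower calls was 17.8% in each comparison. Single ES lines moved these counts: without ES2 or without ES3, fewer biogenesis factors were called lower in both groups. Such fits hold 1 ES line, and fewer of all genes were called lower in them too. The polymerase I genes called lower were also fewer in both groups without ES2 or without ES3. In these fits their share was below that of all genes in pXEN and above it in XEN. In XEN the polymerase I genes called lower numbered 5 (26.3%) without XEN1 or without XEN5, where 14.6% of all genes were lower.

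Of 15 snoRNA host genes, whose RNA often also begins with a TOP tract, 7 were lower and 1 higher in each endoderm group than in ES. Snhg11 was lowest, with 0.191 ± 0.331 CPM in pXEN and 0 counts in XEN, against 36.3 ± 5.62 CPM in ES. Snhg18 was higher, at 10.0 ± 7.25 CPM in pXEN and 7.52 ± 2.35 in XEN, with 1.22 ± 1.18 in ES. Without ES2 or without ES3, fits with 1 ES line, fewer hosts were lower in each group, as were fewer of all genes. In XEN 4 hosts (26.7%) were lower without XEN1 or without XEN5, where 14.6% of all genes were. Snhg18 was not called in either group without ES3 nor in XEN without XEN1. Among 17 regulators of ribosomal protein genes, 3 were lower in pXEN (17.6%) and 2 in XEN (11.8%), shares no higher than the 17.8% of all genes (1 in each without ES3). Mycl was lowest, at 1.38 ± 0.540 CPM in pXEN lines, 4.46 ± 2.55 in XEN lines and 26.3 ± 2.41 in ES lines. Myc was not called, at 14.2 ± 5.27, 19.5 ± 5.52 and 19.6 ± 10.6 CPM. No gene of the stalk, TOP, polymerase I, biogenesis, snoRNA host and regulator lists was called between pXEN and XEN. There 0.918% of all genes were higher and 3.63% lower.

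In the rat XENP lines, Rpl4 (3966 CPM ± 423), Rpl3 (3137 ± 255) and Rps2 (3016 ± 301) had the highest levels by count (SD, n = 4). Rpl3l had 0 counts in every rat line, Rpl39l 4, 1, 1 and 1 counts in CX1, MAX2, MAX3 and MAX8, and Rps19 4, 2, 4 and 1. Rpl39l thus made up 0.561% ± 0.300 of its pair, with 220 to 315 CPM of Rpl39. Rpl22l1 took 42.5% of its pair in CX1 and 23.5%, 18.7% and 17.7% in MAX2, MAX3 and MAX8. Rpl36al took 24.8% ± 1.68 and Rps27l 29.0% ± 4.52 of their pairs (SD, n = 4).

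CX1 stood apart from the MAX lines. Of 75 members with a mean of at least 10 CPM, 58 were higher in CX1 than in each MAX line, where 36.7% of 7528 rat genes were. For 12 of the 75 the gap of CX1 above the next line passed the 95% Dixon value for 4 samples, where 2.92% of those genes did. The median ratio of CX1 to the MAX mean was 1.19 for the members and 1.01 for all these genes. Rpl22l1 had 222 CPM in CX1, against 73.0, 64.0 and 72.3 in MAX2, MAX3 and MAX8. Rpl24 had 2009 CPM in CX1, against 1021, 1010 and 1067 in the MAX lines; it and Rps16 are named after their values were seen. In the other direction, 5 of the 75 members (6.67%) were lower in CX1 than in each MAX line, where 31.8% of the 7528 rat genes were. Of these 5 members, Rps16 had 1304 CPM in CX1 and 1665, 1410 and 1878 in the MAX lines. CX1 was labelled with passages 38 and 40, and the MAX lines with 10 to 17. Only 5 of the pluripotency markers had rat rows, and 3 of these had 0 counts in CX1. Their sum was 164 CPM in CX1, against 6.25 to 10.2 in the MAX lines. The 9 primitive endoderm markers summed to 13932 CPM in CX1, against 22889 to 26635 in the MAX lines. The part of passage and of these markers in the differences between CX1 and the MAX lines was not tested.

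Members that were nearly uncounted were not the same in the 2 species, whose values are set side by side here with no test. Without Rn45s, Rpl26 had 0 CPM in mouse pXEN and 999 ± 141 in rat, Rps27 2.17 and 1014, Rpl34 0.606 and 815, and Rpl30 0.167 and 670. In the opposite sense Rps9 had 1192 CPM in mouse pXEN and 6.42 in rat, Rps19 773 and 2.45, Rpl7a 891 and 4.64, and Rps6 623 and 25.6. These mRNAs encode proteins that every ribosome holds. Among the mouse members, 98.4% of the Rps27 windows occur in another transcript, and 35.9%, 32.3% and 30.5% of those of Rpl26, Rpl30 and Rpl34. The median share was 34.1% over the 6 members not tested and 36.7% over the 79 tested. Genes that overlap a member were left out of this search. The rat members were not searched, and the part of lost multimapping reads in each value was not tested.

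**Figure D5:**
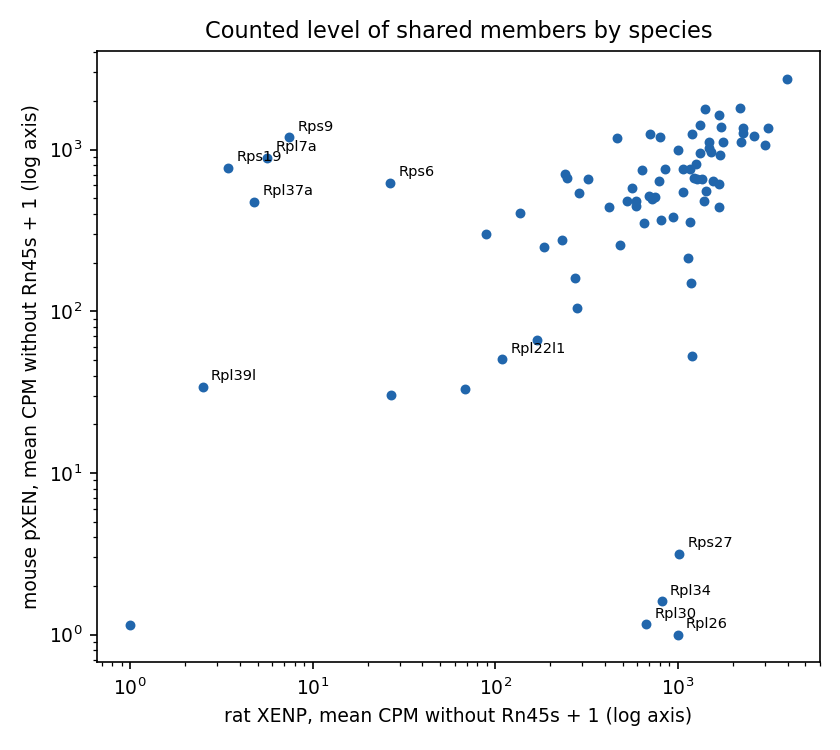
Mean level of each of the 79 shared members in rat XENP lines (4 lines, horizontal) and mouse pXEN lines (3 lines, vertical), as CPM of gene counts without Rn45s plus 1, on log axes. Rpl26, Rpl30, Rps27 and Rpl34 lie near the floor in mouse only, and Rps9, Rps19, Rpl7a, Rpl37a and Rps6 lie far lower in rat than in mouse.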

How the data were processed

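RNA-seq counts of 12 lines were used. Per the file headers and values, the tables the authors deposited hold whole-number gene counts for each line in unstranded, own-strand and reverse-strand columns. The reverse-strand column was analysed, since it held 98.9% to 99.3% of the stranded gene counts of each line. The labels' protocols name a directional kit. CASAVA 1.8.2, Trimmomatic 0.33, STAR 2.5.1 and DESeq2 are named in the submitters' processing notes, with builds mm10 and rn6. No label or header used here names the annotation that served for counting. Rows for read classes, 73.4% to 78.3% of reads in mouse and 89.7% to 91.8% in rat, entered neither library sizes nor tests.

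The 8 mouse libraries were fitted together with edgeR 4.0.16 under R 4.3.3 (TMM, filterByExpr with a minimum count of 10, robust glmQLFit, glmQLFTest), and 10895 genes were tested. The method was tested on simulated data with the same spread for every gene and changes placed in well-counted genes of pXEN only. That run does not speak for members with few counts or an unequal spread. The threshold was an adjusted p of 0.05, by Benjamini-Hochberg over all genes tested. SEs were derived from each log2 fold change and its F statistic, and intervals are 95%. Mouse CPM use TMM-scaled libraries, rat CPM all gene counts. Folds of groups with 0 counts are bounds against 3 counts over the group; counting intervals cover counting error only. Replicates are separately derived lines, and rat and mouse were not tested against each other.

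Members and lists were chosen with earlier results of these data known. Named members are the 10 highest and 10 lowest called per comparison, the paralogs with their main copies, the X-linked members, the 3 highest and lowest by level, and the extreme called gene of each list; members that describe a limit or a line were chosen after their values were seen. Windows of 101 bases were compared with GENCODE vM21 transcripts, because no genome was used here, and unannotated copies were not searched. All 85 mouse members and 23379 of 24411 mouse symbols matched GENCODE. Promoter windows are RefSeq's. Alternatives were other scalings, no filter, unstranded counts, Rn45s removed, scaling without members, sex as covariate, DESeq2 1.42.0, 2-group fits and leaving out each line. Their use on the other lists was added after seeing the data.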

Additional observations from a re-analysis of the deposited data

Results flagged for a closer look

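Among the 4 rat lines, CX1 lay far from the other three for several members. Rpl39 had 315 CPM in CX1, and Rpl22l1 222 CPM. Of the 75 members with a mean of at least 10 CPM, 12 had CX1 highest with a gap past the 95% Dixon value, where 2.92% of the 7528 rat genes at that level did. Over a group of 4 lines, chance flags about 1 in 20 at either end and in any line, so that rate is not the one for CX1 alone at the top. The cause was not tested. Rpl39l, at 3.22 CPM and 1.01% of its pair in CX1, was set apart by 4 counts against 1 count in each MAX line; the 95% exact binomial intervals of the shares overlap, and no difference was detectable at this depth.

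The effects of pXEN and XEN against ES differed for Rpl39l by 5.59 on the log2 scale, which is the edgeR comparison of pXEN with XEN (adjusted p = 0.00610). The 3 pXEN lines were above the 3 XEN lines.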

How the results depend on the processing

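No paired analysis was possible because the groups compared share fewer than 2 line numbers. In every alternative run, the calls of Rpl10l against ES in both groups, Rpl7a higher in pXEN, Rpl22l1 and Rpl39l lower in XEN, and Rpl39l higher in pXEN than XEN kept their direction and stayed past the threshold. Members called lower in pXEN than ES numbered 14 with upper-quartile scaling, 3 without a filter on low counts, 12 with DESeq2, and 3 to 10 when single lines were left out (4 without pXEN6, 3 without ES3). Members called lower in XEN than ES numbered 20 with upper-quartile scaling, 7 when only these 2 groups were fitted, and 5 to 12 when single lines were left out (7 without XEN5 or ES2, 5 without ES3). The higher member in XEN, Rpl7a, was called without any other line (0 to 1 called) but not without ES2. Without XEN2, 2 members (otherwise 1) were higher in pXEN than XEN, Rpl39l and Rps4l. Values that missed the threshold changed sign when single lines were left out: Rpl39l in pXEN against ES ranged from -0.62 to 1.01, Rpl7l1 and Rps27l in pXEN against XEN from -0.15 to 0.23 and -0.03 to 0.34 (-0.034 without pXEN6), and Rpl10 and Rpl36a in female against male lines from -0.01 to 0.44 (-0.0092 without ES2) and -0.15 to 0.41. The causes were not tested, and sample size falls whenever a line is left out. Lower calls against ES over all genes also fell without pXEN6, XEN5, ES2 or ES3. The members' median against ES stayed below 0 in each alternative, from -0.35 to -0.17 in pXEN and -0.37 to -0.20 in XEN. Counts of 0 to 4 per line limit Rpl10l, Rpl3l and Rpl39l in XEN and rat, and reads with several matches limit members with close copies.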
